A study of Mus musculus with 16 samples.

Results

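The 10 genes described here are the lactate dehydrogenases Ldha, Ldhb and Ldhd and the genes of the malate-aspartate shuttle, Slc25a11, Slc25a12, Slc25a13, Got1, Got2, Mdh1 and Mdh2. They were taken by symbol from 54347 genes in the deposited count table, and all 10 were found. The set was picked with measured values of these libraries in view: lower Ldhb, above all in GMP, and lower Slc25a12 in LSK, both in URE vs WT. URE vs WT values of the members are therefore given as a description without a test. Tests of the members are limited to GMP vs LSK averaged over both genotypes, a comparison that is orthogonal to the genotype differences in this balanced design. The URE values by which Ldhb and Slc25a12 were picked still enter these averages.

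RNA was sequenced from 2 bone marrow populations of UREΔ mice, which lack the upstream regulatory element that drives the PU.1 gene Spi1, and of WT littermates, all on the C57BL/6 background and 8 to 12 weeks old. LSK (Lin-Sca-1+c-Kit+) holds stem cells and multipotent progenitors, and GMP (Lin-Sca-1-c-Kit+Cd16/32+) holds granulocyte-monocyte progenitors. Each of the 4 groups (WT_LSK, URE_LSK, WT_GMP and URE_GMP) had 4 libraries from 4 mice. The mice received no treatment that the labels name, the element is missing in every cell of the UREΔ mice and not only in the sorted ones, and the labels do not say whether LSK and GMP of the same replicate number came from the same mouse.

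Lactate dehydrogenase interconverts pyruvate and lactate while it exchanges NADH and NAD+. The A subunit (Ldha) predominates in glycolytic tissues, the B subunit (Ldhb) in oxidative ones such as the heart, and the mitochondrial enzyme encoded by Ldhd acts on D-lactate. The malate-aspartate shuttle carries the electrons of cytosolic NADH into mitochondria: Mdh1 makes malate in the cytosol, the oxoglutarate carrier Slc25a11 brings it in, Mdh2 regenerates NADH in the matrix, the transaminases Got2 and Got1 pass through aspartate, and the aspartate-glutamate carriers Slc25a12 (aralar) and Slc25a13 (citrin) export that aspartate. Blood stem cells are known for a glycolytic metabolism, and myeloid differentiation for an increase in mitochondrial respiration.

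The members' genes lie on 7 mouse chromosomes. In GENCODE M21 (GRCm38), Ldhb spans chr6:142490249-142507957 on the minus strand and Slc25a12 spans chr2:71271063-71367749, also on the minus strand. The 250 bases before the RefSeq start sites of these 2 genes are shown because both genes were low in both URE populations. The windows are chr6:142507958-142508207 for Ldhb and chr2:71367756-71368005 for Slc25a12 (RefSeq, GRCm38.p6, read 5′ to 3′ on the minus strand). Capitals mark GGAA or its reverse complement TTCC, the core letters that ETS factors such as PU.1 share, a motif added after the windows had been seen.
Ldhb: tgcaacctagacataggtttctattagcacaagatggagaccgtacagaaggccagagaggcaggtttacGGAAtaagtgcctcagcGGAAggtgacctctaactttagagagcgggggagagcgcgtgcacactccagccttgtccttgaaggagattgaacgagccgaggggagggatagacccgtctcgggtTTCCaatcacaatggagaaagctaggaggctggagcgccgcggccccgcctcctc
Slc25a12: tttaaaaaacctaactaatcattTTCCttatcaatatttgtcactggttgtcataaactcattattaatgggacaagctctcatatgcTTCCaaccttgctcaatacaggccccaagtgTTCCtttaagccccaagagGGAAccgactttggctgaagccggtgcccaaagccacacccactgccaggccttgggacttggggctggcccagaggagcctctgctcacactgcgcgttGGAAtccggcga

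The core letters occurred 3 times in the Ldhb window and 5 times in the Slc25a12 window, and 93.4% of the 32851 RefSeq windows of this length held them at least once. Neither window held the longer PU.1 core GAGGAAG (in 10.6% of windows on either strand), the RUNX core TGTGGT (14%), the E-box CACGTG (6.02%) or the hypoxia response core ACGTG (16.6%, a letter run that lies within every E-box). Among the other members, Ldhd held the PU.1 core, Mdh2 the RUNX core, and Ldha, Ldhd and Slc25a13 the E-box. A match of letters is a description and shows no binding.

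Library totals ran from 20028300 to 29128900 estimated counts. Spi1, the gene next to the deleted element, was checked first: it reached 124 ± 40.0 CPM (counts per 1000000; SD, n = 4 here and in all groups) in WT_LSK against 3.02 ± 1.42 in URE_LSK, and 140 ± 40.6 in WT_GMP against 21.3 ± 5.97 in URE_GMP, with no overlap. The 7 stem cell markers of the sort summed to 1926 to 3181 CPM over the LSK libraries and to 453 to 1425 over the GMP libraries, and the 7 GMP markers to 696 to 1615 in LSK and 55104.7 to 160367 in GMP. Transcripts of Y-linked genes were present in 3 of 4 libraries of each WT group and in 1 of 4 of each URE group. The 2 genotypes matched in this respect in replicates 1 and 4 and differed in replicates 2 and 3, so the values within each of these replicate pairs are given below.

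Ldhb, the B subunit, was low in both URE populations and had by far the lowest URE vs WT value of the members in GMP. In LSK the 4 WT libraries held 166, 207, 243 and 228 CPM and the 4 URE libraries 55.0, 87.0, 101 and 70.3 CPM. In GMP the WT libraries held 72.6, 102, 117 and 118 CPM and the URE libraries 1.88, 3.92, 4.36 and 4.56 CPM, that is, 39 to 85 counts per library. Every URE library lay below every WT library in both populations. The fitted log2 fold change of URE vs WT was -1.46 ± 0.22 (SE) in LSK, a 2.75-fold lower level, and -4.80 ± 0.34 in GMP, a 28.0-fold lower level. The difference between the 2 genotype effects was -3.37 ± 0.38 on the log2 scale. Replicates 1 and 4 alone gave -1.68 in LSK and -4.91 in GMP, and replicates 2 and 3 alone gave -1.29 and -4.75. The LSK groups also differed in markers: 6 monocyte and dendritic markers summed to 47.7 to 110 CPM in URE_LSK and 195 to 376 in WT_LSK, with Siglech at 0 in URE_LSK. The 9 erythroid markers summed to 2206 to 2639 CPM in URE_LSK and 1170 to 1853 in WT_LSK, with none at 0. Nearly all of that sum was Car2, a carbonic anhydrase (mean 2303 and 1382 CPM), while the means of Klf1 (3.70 and 5.39), Car1 (9.77 and 20.6) and Hbb-bt (1.74 and 39.9) were lower in URE_LSK. Mature neutrophil markers (7 genes, none at 0) summed to 178 to 360 CPM in URE_LSK and 35.6 to 179 in WT_LSK. Megakaryocyte markers (5 genes) summed to 54.8 to 142 CPM in 3 URE_LSK libraries and to 684 in URE_LSK replicate 3, which stood apart with 355 CPM of the platelet chemokine Ppbp, against 52.2 to 75.4 in WT_LSK, where Gp1bb was at 0. In those 3 libraries the sum was mostly Itga2b (49.6 to 135 CPM, against 26.2 to 48.5 in WT_LSK). Pf4 (2.55 to 7.72), Gp9 (2.25 to 3.70) and Ppbp (0.078 to 0.133) were lower there than in WT_LSK (8.68 to 16.1, 5.86 to 12.7 and 1.53 to 3.71). Without URE_LSK replicate 3 the log2 fold change in LSK was -1.61 for Ldhb and -2.42 for Slc25a12. The summed level of 5 B lymphoid markers was 25 to 36.9 CPM in URE_LSK, with Pax5 at 0, and 58.5 to 83.9 in WT_LSK. The 6 T and NK markers summed to 214 to 356 CPM in URE_LSK, with Cd3e and Cd3d at 0, and to an overlapping 118 to 293 in WT_LSK. Nearly all of this sum was Nkg7 (mean 273 and 176 CPM), while the mean of Trbc2 was lower in URE_LSK (1.53 and 2.51). The part of these markers in the LSK values of Ldhb and Slc25a12 was not tested. In these sorted populations a smaller share of cells with the transcript and less transcript per cell cannot be told apart.

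Slc25a12, the calcium-regulated aspartate-glutamate carrier aralar, was likewise low in URE_LSK and in URE_GMP. The LSK libraries held 156, 154, 134 and 147 CPM in WT and 27.2, 29.5, 21.4 and 28.1 CPM in URE. The GMP libraries held 293, 277, 256 and 344 CPM in WT and 40.9, 78.2, 45.0 and 44.6 CPM in URE. No URE library reached the WT range in either population. The log2 fold change was -2.51 ± 0.16 (SE) in LSK and -2.50 ± 0.22 in GMP, a 5.68-fold and a 5.66-fold lower level. The difference between the 2 effects was -0.01 ± 0.27, a description, since the gene was picked with genotype values of these libraries in view. This difference moved to -0.28 without URE_GMP replicate 2, whose 78.2 CPM stood above the other URE_GMP libraries. Replicates 1 and 4 alone gave -0.44, and replicates 2 and 3 alone gave 0.38. In GMP the effect itself was -2.91 in replicates 1 and 4 and -2.15 in replicates 2 and 3.

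Slc25a13, the paralogous carrier citrin, was apart between genotypes in GMP and overlapped in LSK. The WT_GMP libraries held 81.0, 75.1, 64.7 and 74.8 CPM and the URE_GMP libraries 43.3, 43.5, 34.2 and 41.3 CPM, without overlap. In LSK the ranges overlapped, with 44.1 to 52.7 CPM in WT and 39.6 to 48.8 CPM in URE, although the URE library was the lower one in 4 of 4 same-numbered pairs. The log2 fold change was -0.88 ± 0.15 (SE) in GMP and -0.13 ± 0.15 in LSK, and the difference between these effects was -0.77 ± 0.20. The GMP values within replicates 1 and 4 and within replicates 2 and 3 were -0.90 and -0.88. The log2 fold change of GMP vs LSK was 0.59 ± 0.14 in WT and -0.17 ± 0.14 in URE. URE_GMP libraries also had more summed CPM of 7 mature neutrophil markers (246 to 1015, against 47.5 to 146 in WT_GMP) and less of 6 monocyte and dendritic markers (49.9 to 237, against 610 to 946); of the first list all 7 and of the second list 5 were detected in every URE_GMP library, none was at 0, and their part in the GMP values of Ldhb, Slc25a12 and Slc25a13 was not tested. The 6 T and NK markers summed to 1352 to 2228 CPM in URE_GMP and 562 to 976 in WT_GMP, nearly all of it Nkg7 (mean 1711 and 804 CPM), with Cd3e at 0 in both. The 5 B lymphoid markers summed to 10.9 to 26.2 CPM in URE_GMP and 62.2 to 90.4 in WT_GMP, with Pax5 at 0 in both. Erythroid sums (224 to 1505 and 352 to 899 CPM) and megakaryocyte sums (74.9 to 236 and 91.4 to 207 CPM) overlapped between URE_GMP and WT_GMP. The part of these lists in the GMP values was not tested either. Lineage-positive cells were left out by the Lin- gate of the sort.

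The third carrier, Slc25a11, exchanges malate for oxoglutarate. Its mean was 121 ± 12.8 CPM in WT_LSK, 116 ± 14.6 in URE_LSK, 94.3 ± 9.22 in WT_GMP and 114 ± 9.56 in URE_GMP. The genotype ranges overlapped in LSK, and in GMP they overlapped only between 103.3 and 103.6 CPM. The log2 fold changes were -0.08 ± 0.15 (SE) in LSK and 0.26 ± 0.14 in GMP, and the URE library was the higher one in 4 of 4 same-numbered pairs in GMP and in 2 of 4 in LSK.

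**Figure D1:**
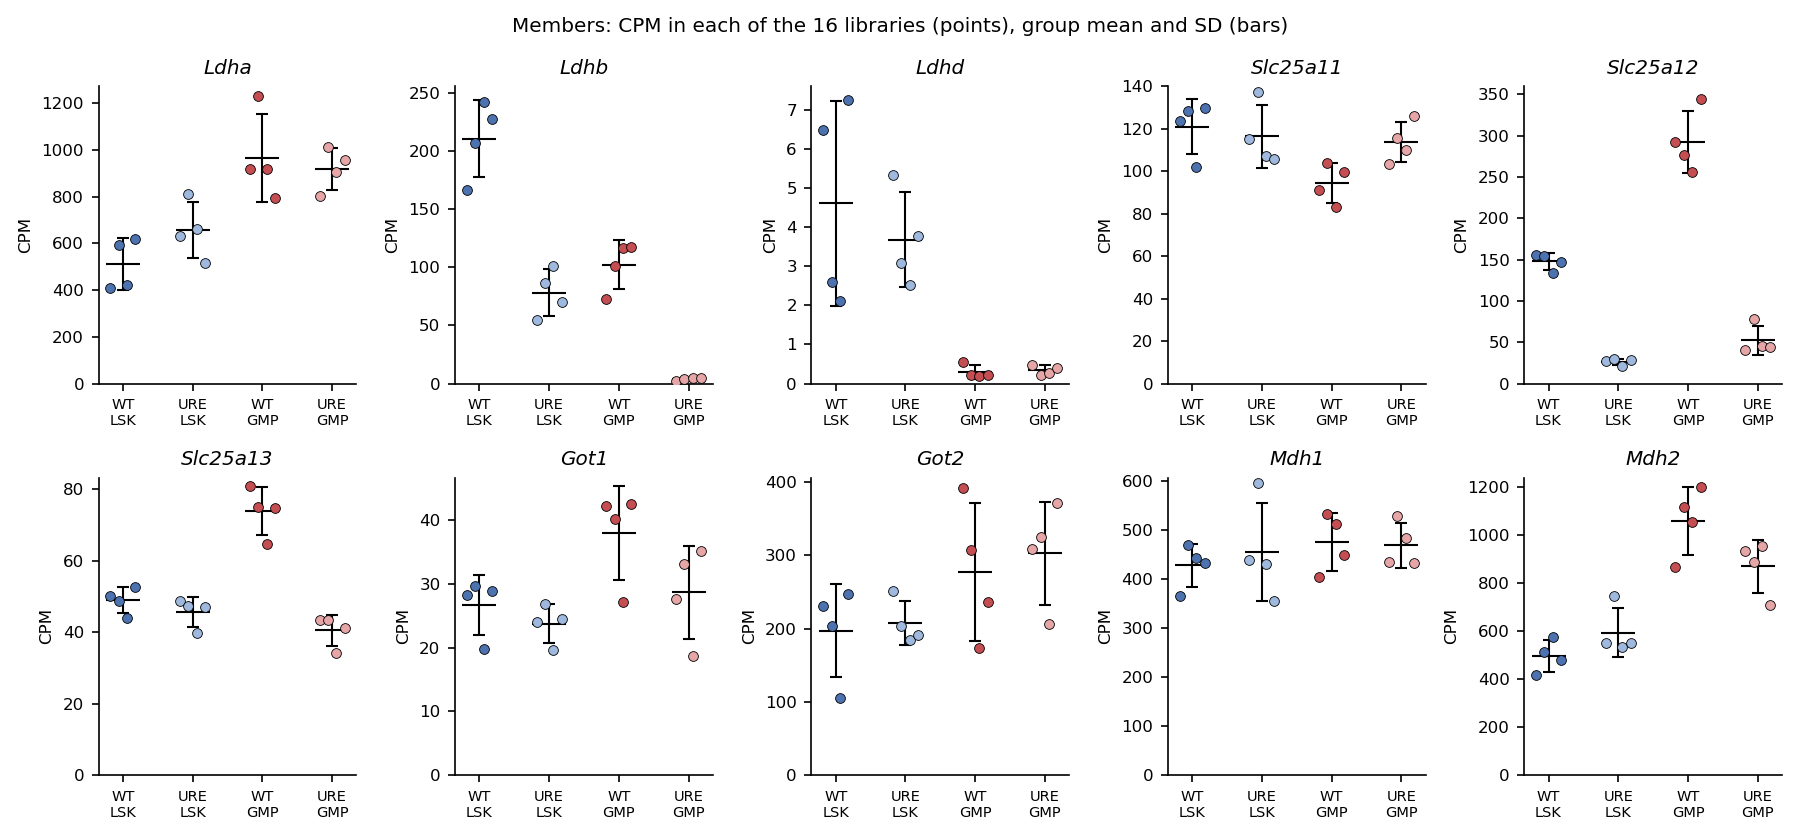
CPM of the 10 members in each of the 16 libraries (points; vertical axes start at 0), with the mean and SD of each group of 4 as bars. Ldhb and Slc25a12 show no overlap of WT and URE points in LSK or GMP, Slc25a13 shows none in GMP, and the remaining panels overlap between genotypes.

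Ldha, the A subunit, was the more abundant lactate dehydrogenase in all groups and overlapped between genotypes. It reached 410, 595, 420 and 619 CPM in WT_LSK and 633, 810, 664 and 517 CPM in URE_LSK. In GMP it reached 920, 1232, 917 and 794 CPM in WT and 801, 1014, 904 and 958 CPM in URE. The log2 fold change of URE vs WT was 0.34 ± 0.20 (SE) in LSK and -0.08 ± 0.17 in GMP.

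Ldhd, the D-lactate dehydrogenase, was low in LSK and close to the limit of detection in GMP. It held 2.11 to 7.25 CPM in WT_LSK and 2.53 to 5.34 CPM in URE_LSK, but 0.196 to 0.563 CPM in WT_GMP and 0.209 to 0.482 CPM in URE_GMP, where it did not pass the count filter. The log2 fold change in LSK was -0.35 ± 0.46 (SE), and it differed in sign within replicates 1 and 4 (-0.62) and within replicates 2 and 3 (0.23). Exons of Znrf1 on the opposite strand cover 42.2% of the annotated exonic bases of Ldhd, and these unstranded libraries cannot separate reads of the 2 genes there by strand. Annotated pseudogene copies (Ldha-ps, Ldha-ps2, Ldha-ps3, Ldhb-ps and Got2-ps1) held 0 to 9 counts in any library.

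The transaminases differed little by genotype. Cytosolic Got1 had 26.7 ± 4.66 CPM in WT_LSK and 23.7 ± 3.03 in URE_LSK, and 38.0 ± 7.35 in WT_GMP and 28.6 ± 7.35 in URE_GMP. The log2 fold changes were -0.20 ± 0.20 (SE) in LSK and -0.42 ± 0.24 in GMP, and Got1 was lower in the URE library of all 4 same-numbered pairs in each population although the ranges overlapped. Mitochondrial Got2 had 197 ± 63.6 and 208 ± 30.2 CPM in WT_LSK and URE_LSK, and 277 ± 94.1 and 303 ± 69.7 in WT_GMP and URE_GMP. Its log2 fold changes were 0.05 ± 0.25 and 0.12 ± 0.26.

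Of the malate dehydrogenases, cytosolic Mdh1 was the most even member, with group means from 428 to 475 CPM and genotype log2 fold changes of 0.06 ± 0.18 (SE) in LSK and -0.03 ± 0.15 in GMP. Mitochondrial Mdh2, which also serves the TCA cycle, had 496 ± 66.5 CPM in WT_LSK, 593 ± 101 in URE_LSK, 1057 ± 141 in WT_GMP and 869 ± 110 in URE_GMP. The genotype ranges overlapped in both populations, with log2 fold changes of 0.23 ± 0.18 in LSK and -0.29 ± 0.16 in GMP.

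Over the whole transcriptome, calls required a change above 1.5-fold and a Benjamini-Hochberg adjusted p under 0.05 in edgeR's quasi-likelihood test. In LSK, 2.38% of 15154 genes tested were called higher and 3.76% lower in URE; 2 of the 10 members, Ldhb and Slc25a12, were among those lower, and the other 8 were not called. Genes whose groups did not overlap made up 5.66% (URE higher) and 6.90% (URE lower) in LSK, again with Ldhb and Slc25a12 as the members in the lower class. In GMP, 4.67% of 13829 genes were called higher and 3.63% lower; Ldhb, Slc25a12 and Slc25a13 were the members among those lower, of 9 tested. The shares without overlap were 7.85% and 6.98% in GMP, with the same 3 members in the lower class. The members were picked on these contrasts, so nothing is read from their counts. The median log2 fold change of the members was -0.11 in LSK and -0.29 in GMP, beside 0.00093 and 0.0052 for all genes tested.

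**Figure D2:**
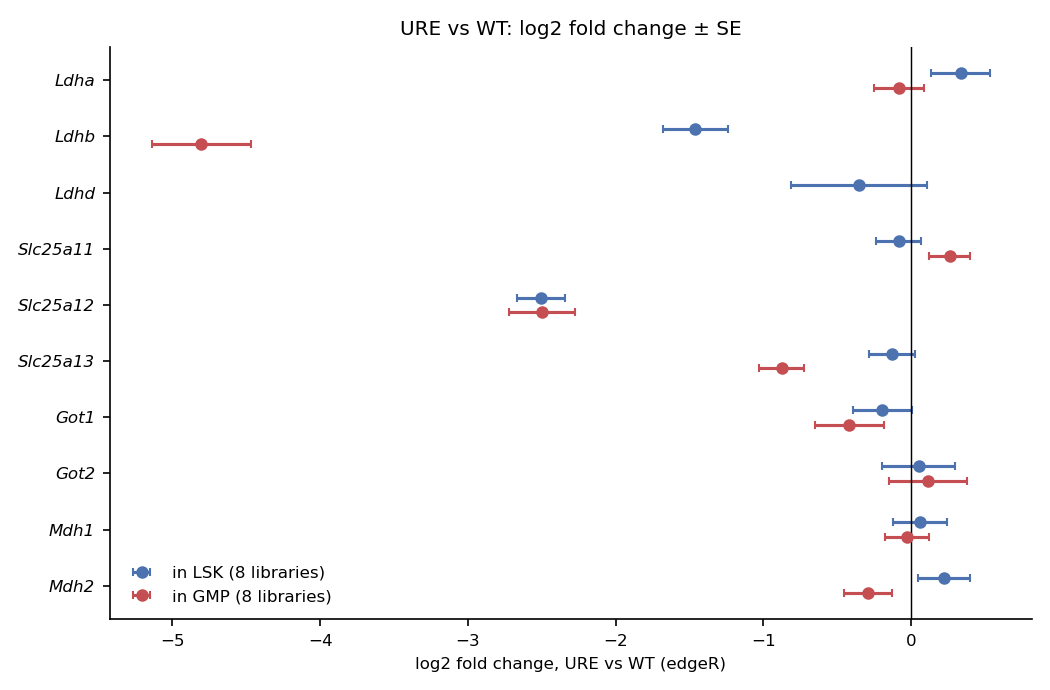
Fitted log2 fold change of URE vs WT (horizontal axis) for each member, in LSK (blue) and in GMP (red), with the SE as bars; Ldhd was not fitted in GMP. Slc25a12 lies at the same value in both populations (-2.51 and -2.50), Ldhb is much further from 0 in GMP (-4.80) than in LSK (-1.46), and Slc25a13 leaves 0 in GMP alone (-0.88).

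GMP vs LSK asks how the set differs between the stem cell compartment and committed myeloid progenitors, whatever the genotype. Of all 15935 genes tested, 13.2% were called higher and 20.5% lower in GMP, and 3 members were called higher (Ldha, Slc25a12 and Mdh2) and Ldhb was called lower. Ldhd also passed the thresholds, but it is not read as a call for the reason given below. The median over the 10 members, Ldhd included, was 0.30, beside -0.10 for all genes. All of the following adjusted p-values are from edgeR's quasi-likelihood test over all genes.

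Ldha rose in GMP by a log2 fold change of 0.70 ± 0.13 (SE, adjusted p = 5.39e-04), and it was higher in GMP in 8 of 8 same-numbered pairs of one genotype. The value was 0.92 ± 0.19 in WT, where the 2 ranges did not overlap, and 0.49 ± 0.19 in URE, where they did. Mdh2 rose by 0.82 ± 0.11 (adjusted p = 3.37e-05), in 8 of 8 pairs, with 1.09 ± 0.16 in WT and 0.55 ± 0.16 in URE. Slc25a12 rose by 0.98 ± 0.14 (adjusted p = 3.65e-05), in 8 of 8 pairs, and by nearly the same amount in WT (0.99 ± 0.19) and in URE (0.97 ± 0.19), although the URE libraries started from 26.6 ± 3.54 CPM and the WT libraries from 148 ± 9.98 CPM.

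These 3 increases are relative to a composition-corrected library size. With total counts and no scaling factor the median of all genes moved from -0.10 to -0.45, Ldha stood at 0.36 and Mdh2 at 0.48, both below the 1.5-fold limit, and Slc25a12 at 0.63 remained the 1 member called higher. Relative to the median of all genes, the values were 0.80 for Ldha, 0.92 for Mdh2 and 1.08 for Slc25a12 with the scaling factors, and 0.80, 0.93 and 1.07 without them.

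Ldhb fell in GMP by 2.73 on the log2 scale (SE 0.19, adjusted p = 6.33e-08), in 8 of 8 pairs. The mean hides unequal parts. WT_GMP was below WT_LSK by a log2 fold change of -1.05 ± 0.26, and URE_GMP below URE_LSK by -4.41 ± 0.30. The ranges overlapped in neither genotype. The low URE_GMP values by which Ldhb had been picked enter this mean and its test. Ldhd entered this fit only through LSK, where it held 54 to 202 counts per library, against 4 to 13 in GMP, so a lower GMP value was fixed by the count filter and is given without a test: its log2 fold change was -3.94 ± 0.53 in WT and -3.43 ± 0.52 in URE, and it was lower in GMP in 8 of 8 pairs.

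The other members were not called in GMP vs LSK. Got2 had a log2 fold change of 0.52 ± 0.20 (adjusted p = 0.0441), which is below the 1.5-fold limit, and it passed that limit at 0.59 without WT_GMP replicate 3 and at 0.59 without WT_LSK replicate 4. Got1 had 0.39 ± 0.16 (adjusted p = 0.0555) and was higher in GMP in 7 of 8 pairs. Slc25a13 had 0.21 ± 0.10 (adjusted p = 0.0939), Slc25a11 -0.20 ± 0.10 (adjusted p = 0.116) and Mdh1 0.10 ± 0.11 (adjusted p = 0.523). These p-values take no account of the replicate numbers. With the numbers as a block, the edgeR adjusted p was 0.00154 for Got1, 0.00261 for Got2 and 0.0106 for Slc25a13. It was 0.0271 for Slc25a11 and 0.260 for Mdh1. All of them stayed below the 1.5-fold limit.

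**Figure D3:**
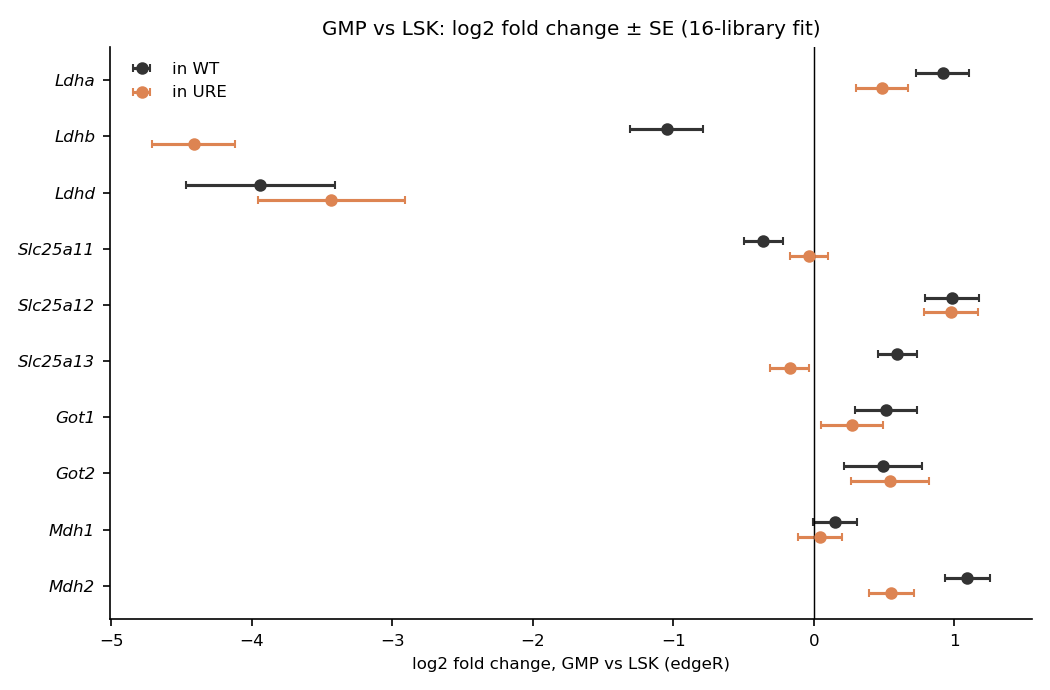
Log2 fold change of GMP vs LSK (horizontal axis) for each member, within WT (black) and within URE (orange), with the SE as bars, from the fit of all 16 libraries. Slc25a12 and Got2 have nearly equal values in both genotypes, Ldhb lies at -1.05 in WT and -4.41 in URE, and Slc25a13 at 0.59 in WT and -0.17 in URE.

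Levels of different genes were compared per kilobase of the longest coding transcript. Mdh2, Ldha and Mdh1 were the first 3 members in this order in every group: Mdh2 from 340 ± 45.7 CPM per kb in WT_LSK to 726 ± 96.8 in WT_GMP, Ldha from 282 ± 61.4 to 532 ± 103, and Mdh1 from 202 ± 21 to 224 ± 27.8. Mdh2 and Ldha differed by less than the sum of their SDs in every group, and so did Ldha and Mdh1 in WT_LSK. Ldhb was the fourth in WT_LSK with 162 ± 25.4 CPM per kb and the ninth in URE_GMP with 2.82 ± 0.94, ahead of Ldhd. Slc25a12 was the seventh in both WT groups (23.3 ± 1.57 in LSK and 46.1 ± 5.91 in GMP), ahead of Slc25a13 (15.7 ± 1.17 and 23.7 ± 2.17). In URE the order of the 2 carriers was the reverse: Slc25a12 had 4.18 ± 0.56 and 8.22 ± 2.74, and Slc25a13 14.6 ± 1.31 and 13 ± 1.39.

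The balance within each isozyme pair is given as a share of the pair's CPM per kb. Ldhb made up 36.8 ± 5.36% of Ldha and Ldhb together in WT_LSK, 14.3 ± 2.99% in URE_LSK, 13.1 ± 3.56% in WT_GMP and 0.546 ± 0.159% in URE_GMP. The URE_LSK libraries (10.8% to 17.5%) lay in a similar range to the WT_GMP libraries (9.90% to 17.1%). Slc25a12 made up 59.7 ± 1.30% of the aspartate-glutamate carrier pair in WT_LSK and 65.9 ± 2.42% in WT_GMP, but 22.2 ± 1.14% in URE_LSK and 38.1 ± 6.62% in URE_GMP. Mdh1 made up 37.3 ± 1.84%, 34.4 ± 2.42%, 23.6 ± 2.13% and 27.2 ± 2.54% of the malate dehydrogenases in WT_LSK, URE_LSK, WT_GMP and URE_GMP. Got1 made up 10.4 ± 0.55% to 14.9 ± 2.78% of the transaminases over the groups.

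**Figure D4:**
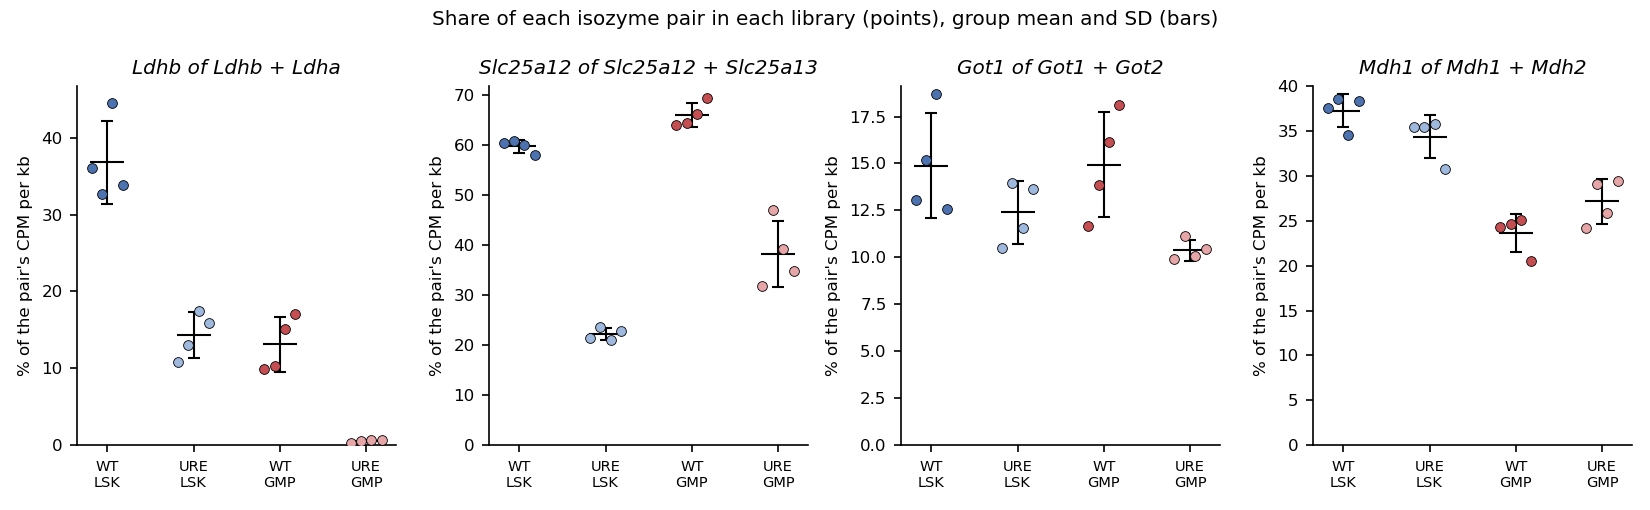
Share of the first gene in the CPM per kb of its isozyme pair (vertical axis, percent, from 0) in each library (points), with the mean and SD of each group as bars. Ldhb falls to 0.546% of the pair in URE_GMP, and Slc25a12 holds the larger share of its pair in WT and the smaller share in URE.

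The log2 ratio within each pair was tested in GMP vs LSK by an exact two-sided permutation test of the cell type labels within genotype, adjusted over the 4 pairs. Ldhb to Ldha fell by 3.45, Mdh1 to Mdh2 fell by 0.72, and Slc25a12 to Slc25a13 rose by 0.74. Each had p = 0.000408, the smallest this design can give in an exact permutation test, and an adjusted p of 0.000544. These differences average unequal parts, and that of Ldhb to Ldha takes in the URE_GMP values by which Ldhb had been picked. The mean log2 ratio of Ldhb to Ldha went from -1.26 in LSK to -3.25 in GMP in WT, and from -3.08 to -8.00 in URE. That of Slc25a12 to Slc25a13 went from 1.59 to 1.98 in WT and from -0.79 to 0.32 in URE. That of Mdh1 to Mdh2 went from -0.21 to -1.15 in WT and from -0.39 to -0.88 in URE. Got1 to Got2 had a difference of -0.14 (exact permutation p = 0.291, adjusted p = 0.291). With labels exchanged only between libraries of the same replicate number, the 3 ratios had an exact permutation adjusted p of 0.0104 and kept their direction within replicates 1 and 4 and within replicates 2 and 3.

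Genes with the pattern most like a member were taken by Pearson's r of log2 CPM over the 16 libraries among 9075 genes; the libraries share groups and depth, and these values are descriptions. For Ldhb they were Abcb1b (r = 0.986), Il10rb (0.965) and Bmpr2 (0.960). For Slc25a12 they were Rogdi (0.977), Ms4a6c (0.973) and Acy1 (0.961). For Ldha they were Cfdp1 (0.950), Mrpl15 (0.950) and Hspd1 (0.945).

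The neighbouring reactions of the pathway were followed in 84 further genes in 7 lists, covering shuttle paralogues, the glycerophosphate shuttle, lactate and pyruvate transport, pyruvate entry and anaplerosis, the TCA cycle, other carriers, and aspartate and glutamate metabolism. In LSK, 70 were tested, 2 rose and 7 fell in URE (2.86% and 10.0%, beside 2.38% and 3.76% of all genes tested), and their median log2 fold change was 0.01, beside 0.00093 for all genes. Glul, glutamine synthetase, rose by 0.71 ± 0.18 (SE, edgeR adjusted p = 0.0490), but kept its call under only 7 of 13 other settings and in 1 of 8 fits with a library left out, with log2 fold changes of 0.59 to 0.84. Ucp2, a mitochondrial carrier of C4 metabolites, had a log2 fold change of -1.37 ± 0.27 (adjusted p = 0.0165). Emb, an ancillary protein of lactate transporters, had -1.11 ± 0.22 (adjusted p = 0.0172), and the muscle-type adenylosuccinate synthase Adssl1, which consumes aspartate, had -0.98 ± 0.23 (adjusted p = 0.0320). The mitochondrial isocitrate dehydrogenase Idh2 had -0.92 ± 0.19 (adjusted p = 0.0183), and the pyruvate dehydrogenase kinase Pdk3 -0.81 ± 0.19 (adjusted p = 0.0357). Each of these 6 genes went the same way in 4 of 4 pairs with no overlap of the groups. The number of lower calls fell from 7 when any 1 of the 8 libraries was left out. It was 0 without WT_LSK replicate 4, and 1 without URE_LSK replicate 1, URE_LSK replicate 4 or WT_LSK replicate 2. It was 3 without URE_LSK replicate 3 or WT_LSK replicate 1, 4 without WT_LSK replicate 3, and 5 without URE_LSK replicate 2. Over all the settings run, the log2 fold changes ranged from -1.62 to -1.11 for Ucp2, -1.36 to -0.92 for Emb and -1.08 to -0.75 for Idh2. They ranged from -1.26 to -0.70 for Adssl1 and from -1.10 to -0.51 for Pdk3, whose weakest value lay below the 1.5-fold limit. With a library left out, Ucp2 and Emb each kept the call in 5 of 8 fits. Idh2 kept it in 4 of 8, Pdk3 in 2 of 8 and Adssl1 in 1 of 8. The lower calls numbered 6 within replicates 1 and 4, where the Y-linked signal matched between genotypes, and 0 within replicates 2 and 3. They numbered 0 when the Y-linked level entered as a covariate. Among all genes tested, 570 lower calls became 636, 229 and 320 in these settings, in that order. Of pathway genes higher in LSK, 1 instead of 2 was called without URE_LSK replicate 1, 2 or 4 or without any 1 of the WT_LSK libraries.

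In GMP, 69 of the 84 were tested, 3 rose and 5 fell in URE (4.35% and 7.25%, beside 4.67% and 3.63% of all genes tested), with a median of -0.08 beside 0.0052 for all genes. Asns, asparagine synthetase, rose by 1.12 ± 0.24 (SE, edgeR adjusted p = 0.0212). Emb had a log2 fold change of -1.23 ± 0.29 (adjusted p = 0.0309), and its genotype effect differed from that in LSK by -0.12 (adjusted p = 0.986). Glud1, glutamate dehydrogenase, had -1.15 ± 0.24 (adjusted p = 0.0190), and the mitochondrial malic enzyme Me2 -1.02 ± 0.20 (adjusted p = 0.0146). The succinate dehydrogenase subunit Sdhb had -0.77 ± 0.20 (adjusted p = 0.0471) and Idh2 -0.67 ± 0.18 (adjusted p = 0.0482). Sdhb kept its call under 7 of 13 other settings and in 2 of 8 fits with a library left out. Idh2 kept its call under 8 of 13 and in 1 of 8. All 6 named genes went the same way in 4 of 4 pairs without overlap. Instead of 5 lower calls there were 0 without URE_GMP replicate 4, 1 without URE_GMP replicate 1, and 2 without WT_GMP replicate 2, 3 or 4. Instead of 3 higher calls there was 1 without URE_GMP replicate 2, URE_GMP replicate 4 or WT_GMP replicate 2, and there were 5 with replicate numbers in the model as a block. Within replicates 1 and 4 the counts were 3 higher and 5 lower, but Glud1, Sdhb and Idh2 were not among those 5. Within replicates 2 and 3 the counts were 0 and 0, and adjusting for the Y-linked signal gave 1 and 2. Among all genes tested, 646 higher and 502 lower calls became 56 and 52 within replicates 2 and 3. They became 331 and 299 with the Y-linked adjustment. Asns, Emb, Sdhb and Idh2 lost their call under that adjustment. Over all the settings run, the log2 fold changes were 0.95 to 1.23 for Asns and -1.57 to -1.09 for Emb. They were -0.94 to -0.67 for Sdhb and -0.81 to -0.59 for Idh2.

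In GMP vs LSK, 71 were tested. Ldhc, Me1 and Gls2 passed the count filter in only 1 of the populations, so no direction is read from them. Of the other 68, 24 rose and 4 fell (35.3% and 5.88%, beside 13.9% and 17% of the 13474 genes that passed the filter in both populations), with a median of 0.42 beside -0.02 for those genes. Of the 18 TCA cycle genes, 9 rose and the remaining 9 were not called; their median was 0.62. The cytosolic isocitrate dehydrogenase Idh1 rose by 2.48 ± 0.15 (SE, edgeR adjusted p = 1.57e-08). In aspartate metabolism, Asns rose by 1.83 ± 0.19 (adjusted p = 2.43e-06), the argininosuccinate synthase Ass1 by 1.56 ± 0.21 (adjusted p = 2.12e-05) and Adssl1 by 1.47 ± 0.15 (adjusted p = 1.98e-06). The lactate transporter Slc16a1 (MCT1) rose by 1.30 ± 0.16 (adjusted p = 1.16e-05). Glul had a log2 fold change of -1.20 ± 0.19 (adjusted p = 0.000124), and the pyruvate dehydrogenase kinases Pdk2 and Pdk1 had -1.01 ± 0.28 (adjusted p = 0.00797) and -0.81 ± 0.27 (adjusted p = 0.0227). All 8 genes went the same way in 8 of 8 pairs. Pdk1 lost its call without WT_LSK replicate 4 (log2 fold change -0.62) and within replicates 2 and 3 (-0.33). Over all 71 tested, 25 were called higher and 5 lower (35.2% and 7.04%, beside 13.2% and 20.5% of all genes tested). With total counts and no scaling factor the counts were 9 higher and 9 lower. Calls among all genes tested then went from 2107 higher and 3264 lower to 1045 and 5222.

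**Figure D5:**
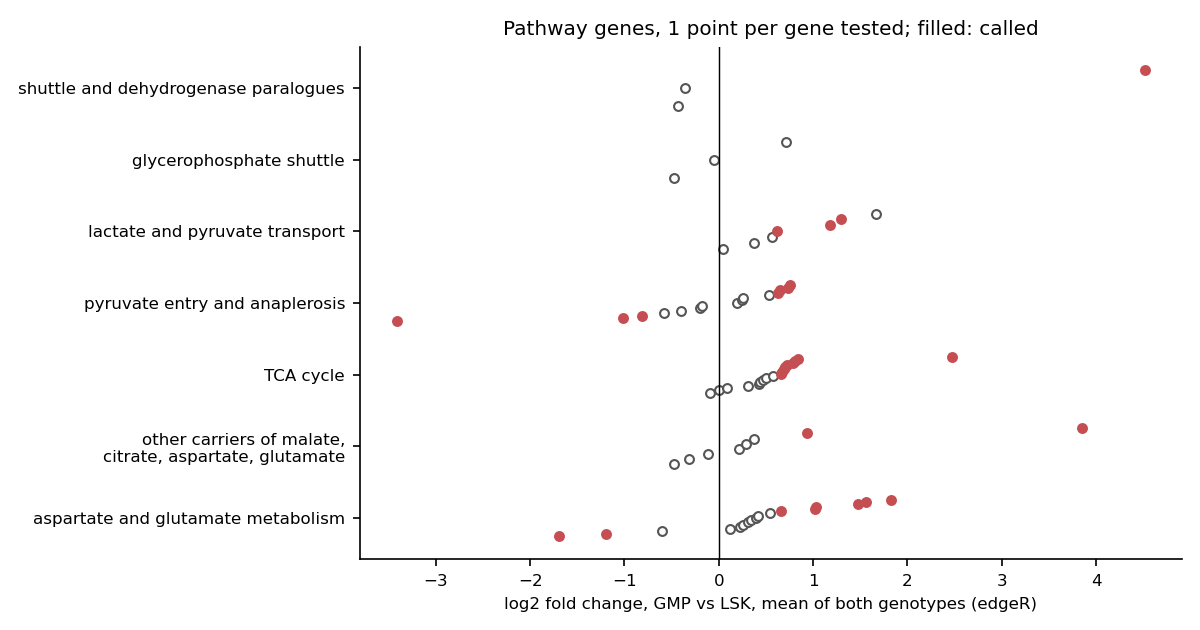
Log2 fold change of GMP vs LSK, mean of both genotypes (horizontal axis), for the 71 pathway genes tested, 1 point per gene, by list; filled points were called and open points were not, with Ldhc and Me1 among the filled points. The TCA cycle genes lie at or above 0 except for 1 gene slightly below it, with 9 of 18 called higher.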

How the data were processed

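Poly(A) RNA of sorted LSK and GMP (up to 10 ng per library, NEBNext Single Cell/Low Input, unstranded, paired-end) was measured in 16 libraries. The authors quantified transcripts with Salmon on GRCm38, per the labels, and deposited estimated counts per gene (summed with tximport, per the study's methods), which were rounded to whole numbers here; 0 columns of other samples were present. CPM were computed from these deposited counts with TMM effective library sizes over all 16 libraries. The depth of at least 20028300 counts leaves counting error small except for Ldhd and for Ldhb in URE_GMP.

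Groups came from the labels. URE vs WT was fitted within each cell type (8 libraries), and GMP vs LSK and the genotype by cell type term in 1 fit with 1 coefficient per group (16 libraries), with edgeR 4.0.16 (TMM, filterByExpr, quasi-likelihood test, Benjamini-Hochberg) in R 4.3.3 with limma 3.58.1; calls needed an adjusted p below 0.05 and over 1.5-fold, the study's thresholds. DESeq2, the authors' tool, was an alternative (version 1.42.0 here), beside other scalings, filters, blocks, a Y-linked covariate, thinning, and leaving out genes of at least 1% of counts or single libraries. The scripts were tested on simulated data. For the ratio tests, 2 was the prior count of the log2 CPM. Same-numbered libraries deviated together (r of deviations from group means 0.237 to 0.711 for the same number in all 6 pairs of groups), so the numbers pair the samples. No 2 libraries of a group agreed within sampling noise (chi-square per degree of freedom at least 29.6 in 24 pairs).

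Members, lists and tests were chosen with earlier results of these data known. Named were Spi1, all members and their pseudogenes, per contrast up to 5 called pathway genes at each end of the fold changes that averaged 3 log2 CPM or more, the 3 genes most like Ldha, Ldhb and Slc25a12, and markers, of which 1 is not reported here. Coordinates and transcript lengths came from GENCODE M21, matched by symbol for 10 of 10 members, and promoter windows from RefSeq (GRCm38.p6), also for 10 of 10.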

Additional observations from a re-analysis of the deposited data

Results flagged for a closer look

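In 5 of the 40 member groups, 1 library stood far from the other 3 by Dixon's ratio, where chance gives about 1 in 20 groups. Slc25a12 was at 78.2 CPM in URE_GMP replicate 2. Got1 was at 27.1 CPM in WT_GMP replicate 3 and at 19.7 CPM in WT_LSK replicate 3, below its group each time. Mdh2 was at 743 CPM in URE_LSK replicate 2. Ldhd was at 0.563 CPM in WT_GMP replicate 1, at 13 counts.

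The genotype effects of 2 named pathway genes, Me2 and Adssl1, differed between LSK and GMP by the interaction term of the 16-library fit without a replicate block. With replicate numbers as a block, both passed (edgeR adjusted p = 0.00694 and 0.00938) and so did Asns (1.44, adjusted p = 0.0770 without and 0.00576 with the block), Ass1 (1.13, 0.230 and 0.0214) and Glud1 (-0.94, 0.280 and 0.0249). For Me2 the difference (GMP effect minus LSK effect) was -1.31 on the log2 scale (edgeR adjusted p = 0.0281), with effects of 0.25 in LSK and -1.02 in GMP; it passed in 10 of 12 other settings and in 8 of 16 fits without 1 library. For Adssl1 it was 1.30 (edgeR adjusted p = 0.0463), with effects of -0.98 in LSK and 0.34 in GMP; it passed in 8 of 12 other settings and in 2 of 16 fits without 1 library.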

How the results depend on the processing

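Under 28 other settings each, the members' values in GMP vs LSK kept their side of the call in 276 of 280 cases; the 4 exceptions, Ldha and Mdh2 without scaling factors and Got2 without either of 2 libraries, are given with the results. Members called ranged from 3 to 4 higher and stayed at 2 lower (Ldhd included) when 1 library was left out, and 1 was called higher with total counts. The isozyme ratios kept their direction under every setting run and their call with a prior count of 0.5 and in the paired test. In the genotype contrasts and their difference, 672 of 679 member values stayed within 1 SD of the libraries; the other 7 concern Slc25a12 in GMP and the cell type differences of Slc25a12 and Ldha (-0.12 within replicates 1 and 4 and -0.70 within replicates 2 and 3).

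Counts of genes depended more on the setting; the cause was not tested. In LSK the main 360 higher and 570 lower became 677 and 955 with DESeq2, 157 and 229 within replicates 2 and 3, and 190 and 320 with the Y-linked covariate; 581 were higher with a replicate block and 577 with a batch term. In GMP the main 646 higher and 502 lower became 1112 and 887 with DESeq2 and 1317 and 943 with the replicate block. They became 1093 and 787 with the split term, 56 and 52 within replicates 2 and 3, and 331 and 299 with the Y-linked covariate. In GMP vs LSK the main 2107 higher and 3264 lower became 1045 and 5222 with total counts, and 1928 were lower within replicates 2 and 3. Leaving out 1 library gave 206 to 353 higher and 359 to 608 lower in LSK, 395 to 638 and 320 to 538 in GMP, and 1884 to 2334 and 3047 to 3491 in GMP vs LSK.

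Of the pathway genes in LSK, 1 was called higher without a filter, within replicates 2 and 3, with the Y-linked covariate and after thinning, and 0 were lower within replicates 2 and 3 and with the covariate. In GMP, 5 were higher with the replicate block, 0 within replicates 2 and 3 and 1 with the covariate; 3 were lower without a filter, 0 within replicates 2 and 3 and 2 with the covariate. With total counts, 9 were higher and 9 lower in GMP vs LSK, beside 1045 and 5222 of all genes tested. Leaving out 1 library gave 1 to 3 higher and 0 to 5 lower in LSK, 1 to 2 and 0 to 5 in GMP, and 21 to 27 and 5 to 7 in GMP vs LSK. The replicate block changed the call of no member in GMP vs LSK and of no named pathway gene in its contrast. Under the block, Got1, Slc25a13 and Slc25a11 came under an adjusted p of 0.05 but not over the 1.5-fold limit. The block added 3 named genes (Asns, Ass1 and Glud1) to those whose genotype effect differed between LSK and GMP.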
